A study of Rattus norvegicus with 9 samples.

Results

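The CC chemokines are small secreted proteins, named for a pair of adjacent cysteines near their start, that direct white blood cells through receptors coupled to G proteins. The genes described here are 7 ligands (Ccl2, Ccl3, Ccl4, Ccl5, Ccl7, Ccl20 and Ccl21) and 2 receptors (Ccr1 and Ccr2) of the rat. They were chosen by name, with earlier results of these data known, and every non-control probe whose accession maps to one of them was taken. This gave 10 probes on 28 of 42877 non-control spots, for 9 of the 15168 genes that have a symbol on the array. Of these 9 genes, 8 were among the 11047 genes tested, and Ccl21 was left out of that test because 5 of its 9 spot values carried a quality flag.

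Bladder RNA of female rats was hybridised to 9 Agilent arrays with 1 colour (Cy3), 3 arrays for each of 3 groups at 3 weeks. Rats of the tolterodine group had partial bladder outlet obstruction (pBOO) and received tolterodine, a blocker of muscarinic acetylcholine receptors. Rats of the pBOO group had the same operation, in which the upper urethra was tied around a thin catheter, with no drug named. Sham rats were operated on without the tie. Strain, age and dose are not given in the sources used here. According to the labels, 5 bladders per group were examined. Whether an array carries RNA of 1 animal or of a pool is not stated, and p-values therefore reflect array-to-array spread, which may be technical. The treatment protocol and the sample codes use opposite letters for obstructed and sham rats, and the groups here are those of the titles. If the names pBOO and sham were exchanged, the sign of every pBOO against sham value would turn and the tolterodine comparisons would trade places.

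A level is the log2 of the processed spot intensity minus the same array's 75th percentile, so a level of 0 is that percentile. Levels are given with flagged spots kept, and tests leave flagged spots out unless stated. That percentile ran from 523 to 1441 intensity units, and 72.1% to 80.1% of spots were well above background. Array sham 1 stood apart from the other sham arrays, with a Pearson r across genes of 0.966 to sham 2 and 0.976 to sham 3, against 0.994 between sham 2 and sham 3. Its r to tolterodine 1, 2 and 3 was 0.973, 0.966 and 0.968, as high as to sham 2. Within the other groups the lowest r was 0.980, between tolterodine 2 and 3, and 0.982, between pBOO 1 and 2. The scan times in the headers put tolterodine 1, tolterodine 2, sham 2 and sham 3 in a first scan, the 3 pBOO arrays and sham 1 in a second, and tolterodine 3 in a scan of its own. No scan holds both tolterodine and pBOO arrays. Markers of smooth muscle (11 of 11 on the array) and of urothelium (14 of 14) were well above background on all 9 arrays, and both are expected of bladder.

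In the bladder wall, monocytes leave the blood along gradients of Ccl2 and Ccl7, which act through Ccr2. Ccl3 and Ccl5 act through Ccr1, among others, and with Ccl4 they draw macrophages and T cells. Ccl20 acts through Ccr6, and Ccl21, with Ccl19, acts through Ccr7 and guides dendritic cells and T cells into lymphatic vessels and lymph nodes. Inflammatory cytokines switch on many of these ligands through the transcription factor NF-kappaB, whereas Ccl21 is made constitutively by lymphatic endothelium and lymphoid stroma.

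The region around the transcription start is shown for 3 ligands, because the levels of Ccl7 and Ccl20 ran opposite to that of Ccl21 across the groups. Each sequence holds 250 bases before the start and 50 after it, from RefSeq on assembly GRCr8, which held such a region for 5 of the 9 genes. Ccl7 lies at chr10:67513845-67514144 on the plus strand, Ccl20 at chr9:91836909-91837208 on the plus strand, and Ccl21 at chr5:61777466-61777765 on the minus strand. Capitals mark matches to the kappa B motif and to the AP-1 motif TGANTCA.
Ccl7: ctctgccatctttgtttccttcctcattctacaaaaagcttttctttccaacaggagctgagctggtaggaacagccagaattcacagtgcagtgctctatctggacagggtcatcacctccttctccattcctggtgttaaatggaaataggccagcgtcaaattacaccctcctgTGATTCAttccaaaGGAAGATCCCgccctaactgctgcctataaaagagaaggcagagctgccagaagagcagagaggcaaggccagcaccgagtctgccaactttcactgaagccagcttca
Ccl20: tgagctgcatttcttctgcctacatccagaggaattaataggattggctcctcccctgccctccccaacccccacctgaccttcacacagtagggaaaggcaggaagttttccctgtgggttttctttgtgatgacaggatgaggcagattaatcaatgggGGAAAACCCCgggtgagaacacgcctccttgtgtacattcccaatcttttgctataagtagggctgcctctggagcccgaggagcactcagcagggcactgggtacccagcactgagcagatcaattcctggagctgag
Ccl21: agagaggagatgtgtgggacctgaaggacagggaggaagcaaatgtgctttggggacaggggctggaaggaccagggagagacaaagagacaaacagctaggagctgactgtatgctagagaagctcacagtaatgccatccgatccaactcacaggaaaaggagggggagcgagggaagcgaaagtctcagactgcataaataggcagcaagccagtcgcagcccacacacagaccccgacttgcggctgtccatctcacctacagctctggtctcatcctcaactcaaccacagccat
The Ccl7 region held a kappa B match on the minus strand with its first base at -59 from the start, an AP-1 match at -73 and a TATAAA match at -34, none of which overlap. The Ccl20 region held a kappa B match on the minus strand at -89. On either strand, 7.51% of 33469 promoters of this length held a kappa B match, 7.33% an AP-1 match and 14.2% a TATAAA match. The interferon-stimulated response element, which 3.92% of promoters held, was also searched and was found in none of the 5 regions. The regions of Ccl21, Ccr1 and Ccr2 held none of the kappa B letters searched. A match is a run of letters, and binding was not measured.

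Ccl2, the main attractant of monocytes, was high in tolterodine and sham bladders and low in pBOO bladders. Its level was 1.91, 1.82 and 1.73 on the tolterodine arrays, 0.00, -0.71 and -0.35 on the pBOO arrays, and 2.32, 1.62 and 1.84 on the sham arrays. The 3 pBOO arrays lay below all other arrays, and the tolterodine and sham arrays overlapped. In bulk tissue, fewer cells of a type and less RNA per cell cannot be told apart, here and below. Ccl2 was 4.50-fold higher with tolterodine than with pBOO alone (log2 fold change 2.17, SE 0.22; limma adjusted p = 0.000122). It was 4.86-fold lower in pBOO than in sham (log2 fold change -2.28, SE 0.22; limma adjusted p = 0.000118). Tolterodine and sham differed by -0.11 on the log2 scale, with a 95% interval of -0.61 to 0.39 (limma adjusted p = 0.748). The Ccl2 probe is printed on 10 spots of each array, and the SD between those spots ran from 0.0262 to 0.0691, against an SD between arrays of 0.09 in tolterodine, 0.36 in pBOO and 0.36 in sham bladders.

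**Figure D1:**
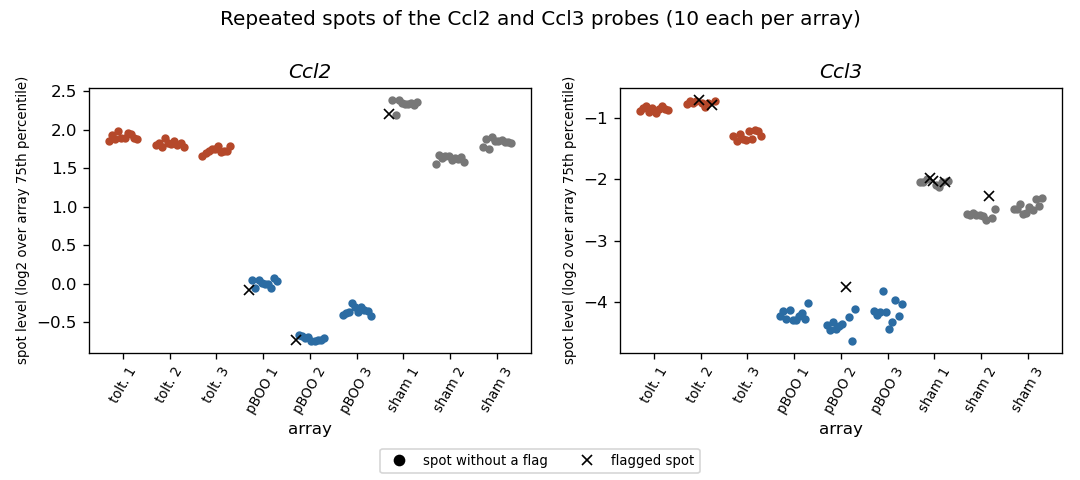
Levels of the 10 repeated spots of the Ccl2 probe and of the Ccl3 probe on each array (y axis, log2 relative to the array's 75th percentile), with arrays in the order tolterodine, pBOO, sham along the x axis. The spots of an array lie close together, most widely for Ccl3 on pBOO 2 (-4.63 to -3.75), and the pBOO arrays sit below the others in both panels.

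Ccl7, a monocyte attractant whose gene lies next to Ccl2 on chromosome 10, had the same order of groups. Its level was -0.07, -0.22 and 0.48 on the tolterodine arrays, -1.70, -1.87 and -1.70 on the pBOO arrays, and 0.67, 0.02 and 0.21 on the sham arrays. Again only the pBOO arrays lay apart. Ccl7 was 3.52-fold higher with tolterodine than with pBOO alone (log2 fold change 1.82, SE 0.22; limma adjusted p = 0.000285) and 4.16-fold lower in pBOO than in sham (-2.06, SE 0.22; limma adjusted p = 0.00017). The difference between tolterodine and sham was -0.24, with a 95% interval of -0.73 to 0.25 (limma adjusted p = 0.447).

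Ccl3, macrophage inflammatory protein 1 alpha, separated all 3 groups, and its highest levels were those of the tolterodine arrays. Its level was -0.85, -0.75 and -1.29 in tolterodine, -4.21, -4.31 and -4.15 in pBOO, and -2.04, -2.55 and -2.45 in sham bladders. No group overlapped another. Ccl3 was 9.68-fold higher with tolterodine than with pBOO alone (log2 fold change 3.28, SE 0.18; limma adjusted p = 5.79e-06), and 2.63-fold higher with tolterodine than in sham (1.39, SE 0.18; limma adjusted p = 0.00152). It was 3.68-fold lower in pBOO than in sham (-1.88, SE 0.18; limma adjusted p = 0.000122). Its probe is also printed on 10 spots, of which 7 of 90 values carried a flag.

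Ccl4, macrophage inflammatory protein 1 beta, was well above background on the 3 tolterodine arrays and on no pBOO or sham array. Its level was -5.08, -4.90 and -5.22 in tolterodine, -7.10, -6.55 and -7.02 in pBOO, and -6.60, -6.53 and -5.64 in sham bladders. The lowest level called well above background lay between -6.29 and -5.54, depending on the array. Where a group is below background the fold is a lower bound: each dim array is counted at that lowest called level, or at the measured level of the gene if this is higher. Ccl4 was at least 1.96-fold higher with tolterodine than with pBOO alone (limma adjusted p = 0.000828) and at least 1.49-fold higher than in sham (limma adjusted p = 0.0132). Between pBOO and sham, both below background, no fold is given (limma adjusted p = 0.0803). With normexp background correction the tolterodine calls missed the threshold against pBOO (limma adjusted p = 0.16) and against sham (limma adjusted p = 0.901).

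Ccl5, also called RANTES, attracts T cells and monocytes. Its level was -0.79, -0.88 and -0.45 in tolterodine, -1.60, -1.42 and -1.40 in pBOO, and -1.72, -1.37 and -1.41 in sham bladders. The tolterodine arrays lay above all others, while pBOO and sham overlapped. Ccl5 was 1.70-fold higher with tolterodine than with pBOO alone (log2 fold change 0.77, SE 0.15; limma adjusted p = 0.00416) and 1.73-fold higher than in sham (0.79, SE 0.15; limma adjusted p = 0.00715). pBOO and sham differed by 0.03, with a 95% interval of -0.31 to 0.37 (limma adjusted p = 0.893). With scan as a block the difference between tolterodine and pBOO was 0.31 (limma adjusted p = 0.158) as a fixed term and 0.53 (limma adjusted p = 0.0393) as a random one. With scan as a fixed term, every value that involves pBOO rests on sham 1, the single array that shares a scan with pBOO.

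Ccl20, the ligand of Ccr6 on dendritic cells and T cells, separated all 3 groups. On its brighter probe the level was -3.88, -3.54 and -4.27 in tolterodine, -8.47, -8.13 and -8.36 in pBOO, and -5.41, -6.00 and -6.18 in sham bladders. The groups did not overlap, but the signal was well above background on all 3 tolterodine arrays, on no pBOO array and on sham 1 alone among the sham arrays. Ccl20 was at least 4.42-fold higher with tolterodine than with pBOO alone (limma adjusted p = 5.36e-06), and at least 1.13-fold lower in pBOO than in sham (limma adjusted p = 0.000125). Tolterodine lay 1.97 above sham on the log2 scale (SE 0.24; limma adjusted p = 0.00116), a value that rests on sham levels near background. With normexp background correction both comparisons with sham missed the threshold (limma adjusted p = 0.199 for tolterodine and 0.0508 for pBOO). The second Ccl20 probe, which was above background on the tolterodine arrays only, gave the same order, at -4.30, -4.08 and -5.11 in tolterodine, -8.32, -8.00 and -8.16 in pBOO, and -5.93, -6.80 and -6.32 in sham bladders.

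Ccl21, the ligand of Ccr7 made by lymphatic vessels, was the only one of the 7 ligands that was highest in pBOO. With flagged spots kept, its level was 0.81, 0.77 and 1.07 in tolterodine, 1.96, 1.93 and 1.97 in pBOO, and 0.79, 1.57 and 1.46 in sham bladders. The 3 pBOO arrays lay above all others, and sham 1 lay beside the tolterodine arrays. The flags on tolterodine 1, pBOO 1, pBOO 2, sham 2 and sham 3 mark an uneven local background around the spot. In a fit of 11636 genes that kept flagged spots, which called 41.9% of genes with tolterodine against pBOO, 43.4% in pBOO against sham and 24.1% with tolterodine against sham, Ccl21 was 2.10-fold lower with tolterodine than with pBOO alone (log2 fold change -1.07, SE 0.20; limma adjusted p = 0.00302) and 1.60-fold higher in pBOO than in sham (0.68, SE 0.20; limma adjusted p = 0.0224). The tolterodine minus sham difference was -0.39, with a 95% interval of -0.84 to 0.06 (limma adjusted p = 0.18), and without sham 1 it was -0.63 (limma adjusted p = 0.00608). Without sham 1 the pBOO minus sham difference was 0.44 (limma adjusted p = 0.0194), and it missed the threshold when pBOO 1, pBOO 2 or pBOO 3 was left out (highest limma adjusted p = 0.0648). With scan as a fixed term, tolterodine minus pBOO was -1.89, pBOO minus sham 1.17 and tolterodine minus sham -0.73 (limma adjusted p = 0.00169).

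Ccr1, the receptor of Ccl3 and Ccl5 on monocytes and neutrophils, was highest with tolterodine. Its level was -2.70, -2.39 and -3.12 in tolterodine, -4.48, -4.39 and -4.58 in pBOO, and -2.99, -4.10 and -3.80 in sham bladders. The pBOO arrays lay below the others, and sham 1 lay among the tolterodine arrays. Ccr1 was 3.35-fold higher with tolterodine than with pBOO alone (log2 fold change 1.74, SE 0.28; limma adjusted p = 0.00154). It was 1.80-fold lower in pBOO than in sham (-0.85, SE 0.28; limma adjusted p = 0.0385) and 1.86-fold higher with tolterodine than in sham (0.89, SE 0.28; limma adjusted p = 0.0486). The last of these calls held in 2 of the 9 fits that left out 1 array, those without tolterodine 3 or sham 1 (1.21 without sham 1; limma adjusted p = 0.00393), and missed in the other 7 (0.66 to 0.89; highest limma adjusted p = 0.153). The pBOO against sham call held in 3 of those 9 fits, without tolterodine 2, tolterodine 3 or sham 2, and missed in the others (highest limma adjusted p = 0.103). It was -0.53 without sham 1 (limma adjusted p = 0.071), and -1.49 within the second scan, where sham 1 is the sole sham array and no test is given. With scan as a fixed term, tolterodine minus pBOO was 2.89 (limma adjusted p = 0.000386).

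Ccr2, the receptor of Ccl2 and Ccl7, marks inflammatory monocytes. Its level was -3.99, -3.76 and -4.39 in tolterodine, -5.52, -5.48 and -5.37 in pBOO, and -5.06, -3.58 and -3.82 in sham bladders. The pBOO arrays were lowest, and sham 1 lay nearer to them than to the other sham arrays. Ccr2 was 2.65-fold higher with tolterodine than with pBOO alone (log2 fold change 1.41, SE 0.35; limma adjusted p = 0.0115) and 2.47-fold lower in pBOO than in sham (-1.30, SE 0.35; limma adjusted p = 0.0157). The difference between tolterodine and sham was 0.11, with a 95% interval of -0.68 to 0.90 (limma adjusted p = 0.849). Both values that involve pBOO moved with scan in the fit, where pBOO shares its scan with sham 1 alone, so scan and that array cannot be told apart. With scan as a fixed term, tolterodine lay 0.22 above pBOO (limma adjusted p = 0.408) and pBOO lay at -0.39 relative to sham (limma adjusted p = 0.0759), with 0.63 (limma adjusted p = 0.133) and -0.67 (limma adjusted p = 0.0581) as a random term. Without sham 1, pBOO minus sham was -1.76 (limma adjusted p = 0.000313) and without sham 3 it was -1.14 (limma adjusted p = 0.0576).

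**Figure D2:**
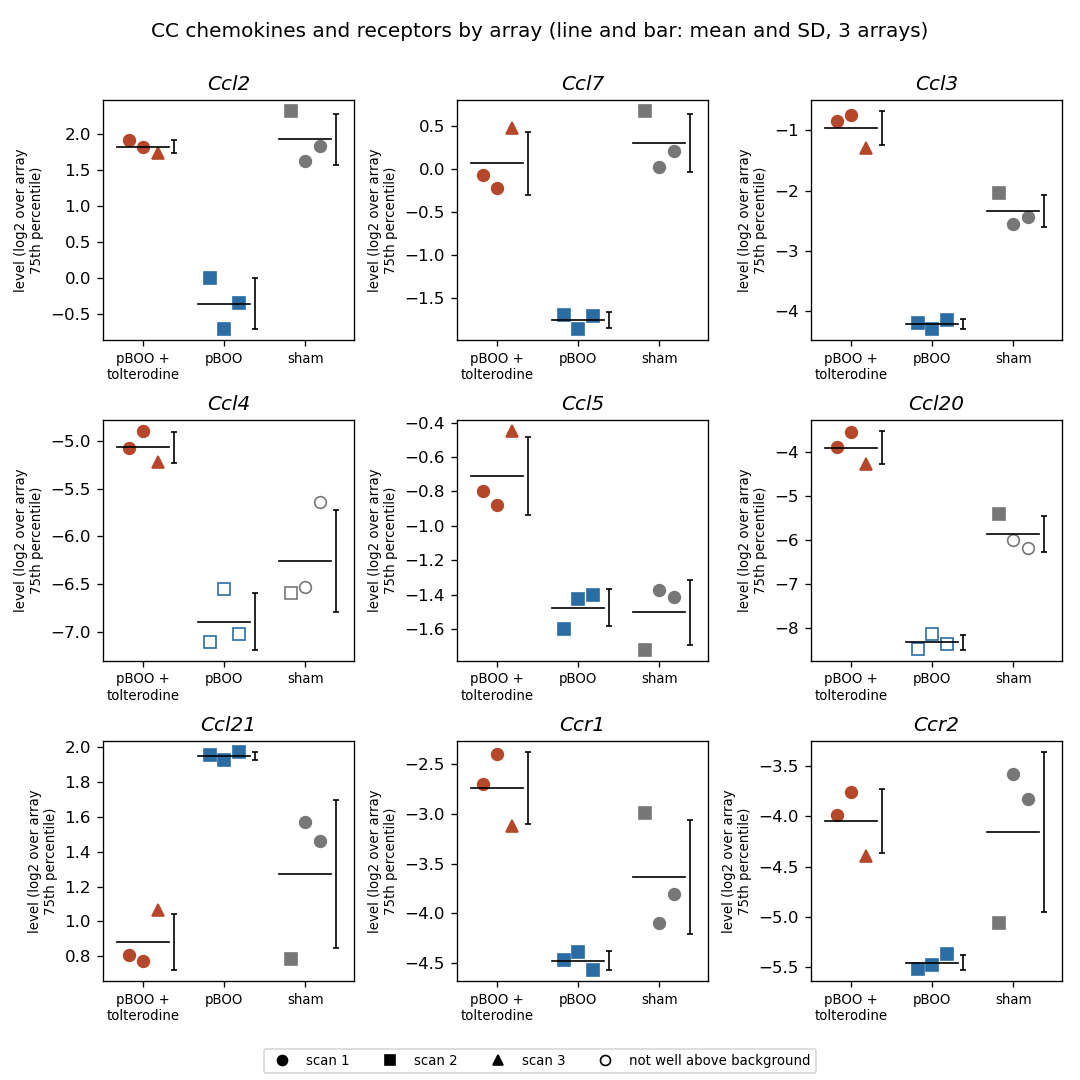
Level of each of the 9 genes on each array (y axis, log2 relative to the array's 75th percentile) for tolterodine, pBOO and sham. Points are arrays with flagged spots kept, horizontal lines are group means, and bars are the SD between arrays. For all genes except Ccl4, Ccl5 and Ccl21 the pBOO arrays lie below both other groups. Ccl4 and Ccl5 are apart only in tolterodine, where alone Ccl4 is above background, and Ccl21 is highest in pBOO.

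Across the set, all 8 tested genes were higher with tolterodine than with pBOO alone, and on each of them the groups did not overlap. The background was broad: 41.3% of all tested genes were called in this comparison, 26% higher and 15.3% lower, and the groups did not overlap on 58.7%. In pBOO against sham 6 of 8 were lower, with Ccl4 and Ccl5 not called. There 42.5% of all genes were called, 20.8% higher and 21.7% lower, and the groups did not overlap on 6 of the 8 genes and on 55.7% of all genes. With tolterodine against sham 5 of 8 were higher (Ccl3, Ccl4, Ccl5, Ccl20 and Ccr1), with Ccl2, Ccl7 and Ccr2 not called. There 24.4% of all genes were called, 17.8% higher and 6.58% lower, and the groups did not overlap on 4 of the 8 genes and on 43.1% of all genes. The median log2 fold change of the 8 genes was 1.82, -1.59 and 0.84 in these comparisons, against 0.11, -0.04 and 0.09 over all genes. Ccl4 and Ccl20 entered the test through the arrays where they were high, and had to differ. Over the 6 genes above background in every group the counts were 6 higher, 5 lower and 3 higher. The medians of those 6 genes were 1.78, -1.59 and 0.45. The 3 comparisons share arrays, so their values stand side by side and are not independent of each other. The genes were chosen with earlier results of these data known, so the counts and medians beside those of all genes are a description only.

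The order of groups thus took several forms. Ccl2, Ccl7 and Ccr2 were low in pBOO, with intervals for tolterodine against sham that include 0. Ccl3, Ccl20 and Ccr1 were low in pBOO and above sham with tolterodine. For Ccr1, of the 9 fits that left out 1 array, the call held in 2 with tolterodine against sham and in 3 in pBOO against sham. Ccl20 lay near or below background in pBOO and sham bladders, and with normexp both of its calls against sham were lost. Ccl5 passed the test only in the comparisons with tolterodine. So did Ccl4, but it was above background on the tolterodine arrays alone and had to differ from the other groups. Whether the groups of genes differ from each other in these contrasts was not tested. The first scan holds 2 tolterodine and 2 sham arrays, and not sham 1. Within it, tolterodine minus sham was 1.71 for Ccl3, 1.41 for Ccr1 and 0.56 for Ccl5, each past the threshold (highest limma adjusted p = 0.00654). Ccl20 and Ccl4 were below background on both of those sham arrays, where Ccl20 was at least 3.81-fold and Ccl4 at least 1.57-fold higher with tolterodine. The second scan holds sham 1 as its only sham array, so its values are given without a test. There pBOO minus sham was -2.68 for Ccl2, -2.43 for Ccl7, -2.19 for Ccl3, -1.49 for Ccr1 and -0.39 for Ccr2, and Ccl20 was at least 1.55-fold lower in pBOO. For Ccl4, which is below background on the pBOO arrays, the call with tolterodine against pBOO was lost with scan as a fixed term (limma adjusted p = 0.0622) and held with scan as a random term (limma adjusted p = 0.00988).

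**Figure D3:**
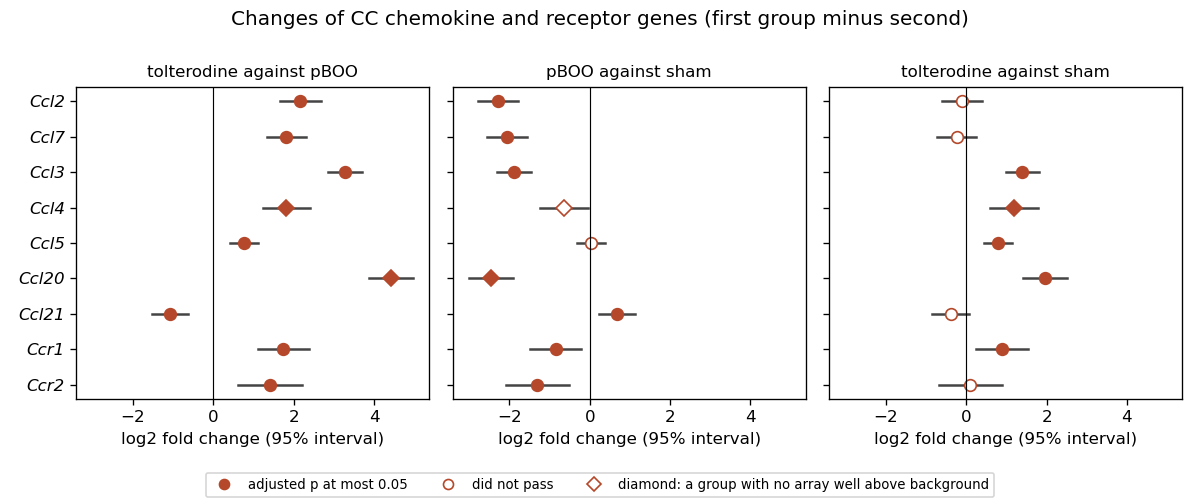
Log2 fold change with its 95% interval (x axis) for each gene (rows) in tolterodine against pBOO, pBOO against sham and tolterodine against sham. Filled points passed the adjusted threshold; diamonds mark a value that involves a group below background on every array, and Ccl21 comes from the fit that keeps flagged spots.

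The remaining CC chemokines moved in both directions. For this list and those below, the shares called over all tested genes were 41.3% with tolterodine against pBOO, 42.5% in pBOO against sham and 24.4% with tolterodine against sham. Of 13 listed, 10 were tested: with tolterodine against pBOO 5 were higher and 3 lower (median log2 fold change 0.69), in pBOO against sham 1 was higher and 5 lower (-0.45), and with tolterodine against sham 1 was higher and 1 lower (-0.10). Ccl6, a macrophage chemokine in rodents, was higher with tolterodine than with pBOO (2.43; limma adjusted p = 2.83e-06) and than in sham (1.26; limma adjusted p = 0.000367), and lower in pBOO than in sham (-1.18; limma adjusted p = 0.000126). Ccl12, which in mice acts through Ccr2, was higher with tolterodine than with pBOO (2.11; limma adjusted p = 0.00957) and lower in pBOO than in sham (-3.24; limma adjusted p = 0.00113). The other higher genes with tolterodine against pBOO were Ccl9, Ccl17 and Ccl28, and the other lower genes in pBOO against sham were Ccl9, Ccl24 and Ccl28. Ccl28 was well above background on 1 tolterodine, 0 pBOO and 3 sham arrays. It entered the test mainly through the sham arrays, and so had to differ in pBOO against sham. Its call with tolterodine against pBOO rests on levels near or below background, and no fold is given for it. Over the 9 chemokines measured in every group, 4 were higher and 3 lower with tolterodine against pBOO (median 0.37). In pBOO against sham 1 was higher and 4 lower (-0.40), and with tolterodine against sham 1 was higher and 1 lower (0.17).

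Ccl11, eotaxin, which attracts eosinophils through Ccr3, ran the other way from its neighbours with tolterodine against pBOO. On assembly GRCr8 the genes Ccl2, Ccl7, Ccl11 and Ccl12 follow each other on chromosome 10. The level of Ccl11 was -1.54, -2.02 and -0.65 in tolterodine, 0.88, 0.66 and 0.80 in pBOO, and -0.50, 0.76 and 0.52 in sham bladders. The tolterodine arrays were below all others. It was lower with tolterodine than with pBOO alone (log2 fold change -2.19; limma adjusted p = 0.00255) and than in sham (-1.67; limma adjusted p = 0.0167), and pBOO minus sham was 0.52 (limma adjusted p = 0.314). The levels of Ccl12 were -1.91, -2.65 and -1.07 in tolterodine, -3.38, -4.88 and -3.68 in pBOO, and -0.12, -1.25 and -0.86 in sham bladders, the order seen for Ccl2 and Ccl7. Ccl5, Ccl9, Ccl6, Ccl3 and Ccl4 form another run of adjacent genes on the same chromosome.

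Ccl19, the other ligand of Ccr7, had its gene near Ccl21 on chromosome 5 and, like it, its highest levels in pBOO. Its level was -2.10, -2.12 and -2.25 in tolterodine, -0.17, -1.45 and -0.67 in pBOO, and -2.53, -2.21 and -2.31 in sham bladders. It was lower with tolterodine than with pBOO alone (log2 fold change -1.40; limma adjusted p = 0.00418) and higher in pBOO than in sham (1.59; limma adjusted p = 0.00211). Ccl27, next to Ccl19, was the remaining chemokine lower with tolterodine than with pBOO (-1.01; limma adjusted p = 0.0166). The receptor Ccr7 was too dim to test, with at most 1 array well above background.

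Of 11 listed other CC and atypical receptors, 4 were tested: 1 was higher with tolterodine against pBOO (median log2 fold change 0.19), 2 were higher and 1 lower in pBOO against sham (0.30), and 2 were higher with tolterodine against sham (0.88). Ccr6, the receptor of Ccl20, stood at -1.29, -1.37 and -0.69 in tolterodine, -4.11, -3.95 and -3.89 in pBOO, and -2.98, -2.87 and -3.02 in sham bladders. Like its ligand it separated all 3 groups, higher with tolterodine than with pBOO (log2 fold change 2.87; limma adjusted p = 1.02e-05) and than in sham (1.84; limma adjusted p = 0.000446), and lower in pBOO than in sham (-1.03; limma adjusted p = 0.00213). The receptors higher in pBOO than in sham were Ccrl2 (0.63, limma adjusted p = 0.0136) and the scavenging receptor Ackr2 (1.38, limma adjusted p = 0.0197). Ackr2 was well above background on only 1 sham array, so its value rests on sham levels near background. Its pBOO 1 value carried a flag and was left out of the test. Ccrl2 was also higher with tolterodine than in sham (1.03; limma adjusted p = 0.00322). Ccr3, the eotaxin receptor, was well above background on no array.

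**Figure D4:**
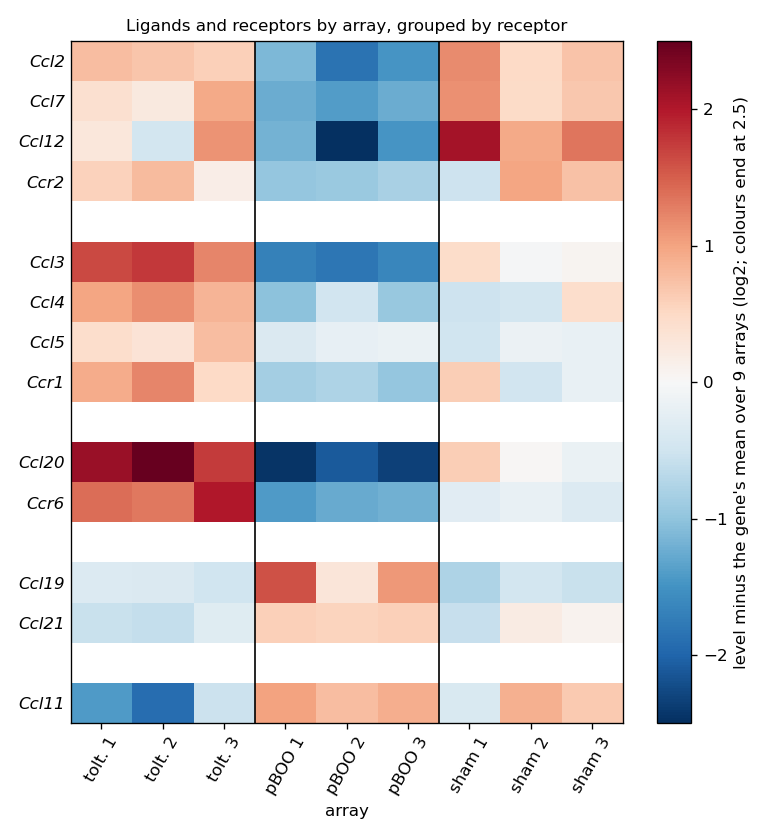
Level of each ligand and receptor on each array, as the log2 difference from that gene's mean over the 9 arrays (colour, which ends at 2.5 in either direction), with genes in rows grouped by the receptor the ligands use (Ccl4 is set beside its close relative Ccl3) and arrays in columns. Ligands and receptors of the Ccr2, Ccr1 and Ccr6 groups are low in the pBOO columns, Ccl5 in the sham columns as well, whereas Ccl19 and Ccl21 are high in pBOO and Ccl11 is low in the tolterodine columns.

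Cytokines and factors that switch on CC chemokine genes were counted next, in a list that also holds Nfkbia, which encodes an inhibitor of NF-kappaB. Of 15 listed, 9 were tested: 7 were higher and 0 lower with tolterodine against pBOO (median log2 fold change 1.35), 0 higher and 6 lower in pBOO against sham (-0.94), and 1 higher, Nfkbia, with tolterodine against sham (0.03). Tnf, tumour necrosis factor, was higher with tolterodine than with pBOO (log2 fold change 4.87; limma adjusted p = 6.94e-06) and lower in pBOO than in sham (-4.37; limma adjusted p = 1.8e-05). Its level was 0.50, 0.51 and 0.59 in tolterodine, -4.00, -4.80 and -4.22 in pBOO, and 0.63, -0.43 and -0.12 in sham bladders. Il1a, interleukin 1 alpha, passed in the same directions (7.51; limma adjusted p = 1.54e-06, and -8.01; limma adjusted p = 1.65e-06), with pBOO levels of -6.31 to -5.62 that lay near background. Il6 was below background on the 3 pBOO arrays and had to differ there. Over the 8 listed genes measured in every group, 6 were higher with tolterodine against pBOO (median 1.05) and 5 lower in pBOO against sham (-0.91). Rela and Nfkb2, which encode subunits of NF-kappaB, passed in none of the comparisons (Rela -0.38 with tolterodine against pBOO, limma adjusted p = 0.0591). Signalling genes below the receptors gave 8 of 12 higher and 0 lower with tolterodine against pBOO (0.63), 5 lower and 0 higher in pBOO against sham (-0.22; Arrb2, Grk2, Rac2, Vav1 and Fgr), and 4 higher and 0 lower with tolterodine against sham (0.50; Arrb1, Arrb2, Plcb2 and Rac2). Rac2, a small GTPase of white blood cells, was higher with tolterodine than with pBOO (2.47; limma adjusted p = 1.83e-05) and lower in pBOO than in sham (-1.67; limma adjusted p = 0.000162), as was the kinase Fgr (1.79; limma adjusted p = 0.000221, and -1.21; limma adjusted p = 0.00175).

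In some cell types the markers moved beside these genes, and their part in the results was not tested. Of 14 tested markers of monocytes and macrophages, 12 were higher and 1 lower with tolterodine against pBOO (median log2 fold change 1.87), 1 higher and 10 lower in pBOO against sham (-0.82), and 9 higher and 0 lower with tolterodine against sham (0.76). The marker that went against the rest in the first pair was Cx3cr1, a receptor of patrolling monocytes. All 15 of these markers were well above background on all 9 arrays. Their mean level ran from 0.88 to 0.92 in tolterodine, -0.85 to -0.72 in pBOO and -0.16 to 0.23 in sham bladders. The group means of Ccl3, Ccl20 and Ccr1 had this order. So did those of Ccr2, with tolterodine and sham close together, and of Ccl4, which was below background in pBOO and sham. The neutrophil, the T and natural killer cell and the signalling lists had it too, with no overlap between groups. In the inducer and dendritic cell lists pBOO was also lowest, and the tolterodine and sham ranges overlapped. Neutrophil markers (7 tested) were higher with tolterodine than with pBOO in 7 of 7 (3.43) and lower in pBOO than in sham in 6 of 7 (-2.24), with mean levels of -1.68 to -1.57 in tolterodine, -4.81 to -4.28 in pBOO and -2.63 to -2.05 in sham bladders. Csf3r and Cxcr2 were below background on the 3 pBOO arrays and had to differ there; over the other 5, 5 were higher and 4 lower in these comparisons. With tolterodine against sham 3 of the 7 were higher (S100a8, S100a9 and Lcn2). Ngp was the neutrophil marker well above background on no array.

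Over all tested genes, 41.3%, 42.5% and 24.4% were called in the 3 comparisons. Several counts below lie near or under these shares and are not read as a result about the cell type. T cell and natural killer cell markers (10 tested) gave 5 higher with tolterodine against pBOO (Cd3d, Cd3e, Cd3g, Cd247 and Cd4), 1 lower in pBOO against sham (Cd3d), and 3 higher (Cd3d, Cd3e and Cd247) and 1 lower (Gzmb) with tolterodine against sham. Cd3e was above background on the tolterodine arrays alone, so its calls follow from how it entered the test; over the other 9 the counts were 4 higher, then 1 lower, then 2 higher and 1 lower. The mean level of this list ran from -3.68 to -3.56 in tolterodine, -4.38 to -4.11 in pBOO and -4.01 to -3.93 in sham bladders, and Cd28 was above background on no array. Dendritic cell markers (4 tested) gave 2 higher with tolterodine against pBOO (Clec9a and Fscn1) and 1 lower in pBOO against sham (Clec9a), with mean levels of -2.06 to -1.51, -2.43 to -2.34 and -2.07 to -1.66 in tolterodine, pBOO and sham bladders, and Xcr1 above background on no array. Lymphatic markers, a list that holds Ccl21 itself, had 4 tested members without it, of which Lyve1 was higher and Flt4 lower with tolterodine against pBOO and Reln higher in pBOO against sham, and Lyve1 and Reln were higher with tolterodine against sham. Prox1, which defines lymphatic endothelium, was above background on no array. The mean level of the lymphatic list, Ccl21 included, overlapped between tolterodine (-0.42 to -0.28) and pBOO (-0.44 to -0.25) and was -0.81 to -0.63 in sham bladders. Tissue markers moved too: 7 of 8 smooth muscle markers were lower with tolterodine than with pBOO (-1.79) and 7 of 8 higher in pBOO than in sham (2.52), and 3 (Mylk, Cald1 and Myocd) were higher with tolterodine than in sham (0.45), with mean levels of 3.31 to 3.63 in tolterodine, 4.36 to 4.61 in pBOO and 3.00 to 3.26 in sham bladders. Urothelial markers (10 tested) gave 5 higher (Krt5, Krt14, Krt17, Krt7 and Cdh1) and 1 lower (Krt20) with tolterodine against pBOO, 6 lower in pBOO against sham, and 1 higher (Krt14) and 4 lower (Krt5, Krt18, Krt20 and Cdh1) with tolterodine against sham. Fibroblast markers (7 tested) gave 2 higher (Col1a1 and Thy1) and 1 lower (Cd34), then 3 higher (Pdgfra, Lum and Cd34), and then 5 higher (Pdgfra, Lum, Col1a1, Thy1 and Cd34), in the same 3 comparisons.

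The genes whose levels ran most like each member over the 9 arrays were found among 10103 genes by Pearson r, which is a description, since the arrays fall into 3 groups. Ccl2 ran closest to Nusap1, a spindle protein (r = 0.995), and Cdc45, a DNA replication factor (0.993). Ccl7 ran closest to Dctpp1 (0.997) and Dusp11 (0.996). Ccl3 ran closest to Mmp12, macrophage elastase (0.998), and to Igsf7 l1 (0.997). The genes closest to Ccl20 were Ccl3 itself (0.995) and Ppp1r1b (0.995). Ccl5 ran closest to Pcp2 (0.986) and Arrb1, a beta-arrestin that binds activated receptors (0.981), and Ccl4 to Gpha2 (0.973) and Spaca9 (0.973). Ccr1 ran closest to the kinase Nek6 (0.988) and the primase subunit Prim1 (0.988), and Ccr2 to the potassium channel Kcnk18 (0.988) and complement C6 (0.984).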

How the data were processed

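Bladder RNA was measured on 9 arrays. Per the file headers, the deposited processed signal is an intensity, background-subtracted and spatially detrended by Agilent Feature Extraction 11.0.1.1 (the submitters' processing notes name version 9.1) and not normalized between arrays. Raw median spot and background intensities, deposited without normalization, served 1 alternative. The deposited quality flags are another kind of value, 0 or 1.

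Processed signals were put on the log2 scale, the 75th percentile of non-control spots was subtracted per array, flagged spots (non-uniform or population outlier, for spot or background) were set to missing and repeated spots averaged. A probe had to be well above background on at least 3 of 9 arrays with 2 unflagged arrays per group, and the brightest probe stood for its gene. Accessions were matched to RefSeq symbols (GRCr8): 18005 of 30367 probes had one. The grid names an older build, so array coordinates are not given.

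Each comparison was a contrast in 1 limma fit (R 4.3.3, limma 3.58.1) over 11047 genes, two-sided, with Benjamini-Hochberg adjustment and a threshold of 0.05. Precision is limited by the number of arrays, with a median SE of 0.17. The fit was tested on simulated data. Some results are not reported here, and their genes were taken out of the lists. The genes and lists were chosen with earlier results of these data known. Named beyond the 9 genes were the closest 2 genes to each by r and, per list, the largest rises and falls among those that passed, with genes that a small count left over. Rela, Nfkb2 and the marker genes were named after their values were seen. Alternatives covered flags, scaling, background, dim probes, probe choice, scan, replicate number and leaving out each array.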

Additional observations from a re-analysis of the deposited data

How the results depend on the processing

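With tolterodine against pBOO, pBOO against sham and tolterodine against sham in that order, normexp background correction gave 2997, 3026 and 960 genes called (4563, 4695 and 2695 as reported), and testing every kept probe on its own gave 7903, 8384 and 4903 calls, over more features. In tolterodine against sham, scan as a fixed block gave 4484, as a random block 4276, and the arrays of the first scan alone 5722 genes called; in pBOO against sham the second scan alone gave 2907. Leaving out each array in turn gave 3377 to 5211, 3365 to 5056 and 1381 to 3742 genes called, and 8 to 8, 4 to 6 and 3 to 5 of the 8 tested chemokine and receptor genes. Of those 8, tolterodine against sham called 3 with quantile scaling, 2 with normexp and 3 with a minimum of 6 arrays above background, and tolterodine against pBOO called 5 with scan as a fixed block. The cause was not tested. No called value of the 9 genes changed sign under the alternatives run; the listed genes beyond these 9 were not run under alternatives.

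Ccr1 lost its call with tolterodine against sham in 12 and in pBOO against sham in 8 of 21 alternatives, and Ccr2 lost its call in pBOO against sham in 4. Ccl20 lost both calls against sham, and Ccl4 both of its calls, with normexp. Ccl4 with tolterodine against sham missed the threshold with quantile scaling (limma adjusted p = 0.0839) and without tolterodine 2 (limma adjusted p = 0.0512). In pBOO against sham, both below background, it passed with array medians (limma adjusted p = 0.0394) and without sham 1 (limma adjusted p = 0.0435), and no fold is read from it. The arrays are not described as paired by replicate number. With the group means taken out, same-numbered arrays of different groups correlated at -0.08 to 0.18, and the others at -0.18 to 0.16. With so few arrays per group, these values cannot settle whether a pairing exists. With the replicate block 8, 6 and 4 of these genes were called, and 4225, 4349 and 2331 of all genes. The call lost was Ccr1 with tolterodine against sham (0.89, limma adjusted p = 0.057). The share of calls that were higher was 62.9% with tolterodine against pBOO (52.7% with quantile scaling) and 73% with tolterodine against sham (58.2% with quantile scaling, 49.9% with array medians). The median of all genes moved to 0.01 from 0.11 in the first of these with quantile scaling, and to -0.05 from 0.09 in the second with array medians; in pBOO against sham it was -0.14 with normexp.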
